A study of Mus musculus with 16 samples.

Results

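Cancer cells sorted from mouse pancreatic tumours were compared by 1 reporter, mScarlet, whatever their second reporter showed. The mScarlet-positive arm held the libraries titled mScarlet and the double-positive libraries (DP), 4 of each. The mScarlet-negative arm held the double-negative libraries (DN) and those titled GFP, again 4 of each. The 8 mScarlet-positive and 8 mScarlet-negative libraries are all 16 libraries of the series, and the titles alone assigned them. Every library came from tumours of KPC pancreatic ductal adenocarcinoma (PDAC) cells carrying a 7TCF-eGFP reporter and a construct named Porcn-DMA, grown orthotopically in mouse pancreas. The cells are a single engineered line, and the sources used here do not give the make-up of the construct, the promoter of mScarlet or the strain and age of the mice. No label says in words what mScarlet reports. Of the populations the description names, WNT-secreting cells are the one to which, by elimination, the mScarlet gate corresponds. The description states 4 mice per group, but no label says whether the 4 gates that share a library number came from the same mouse, so p-values measure the spread between these libraries. RNA was purified on small columns, and cDNA of full length was PCR-amplified because input was low, per the labels' protocols. Counts of mScarlet and GFP transcripts themselves were not analysed here.

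WNT proteins are lipid-modified by the acyltransferase PORCN in the endoplasmic reticulum, a step they need for secretion, and are then carried to the cell surface by WLS. A secreted WNT stabilizes beta-catenin in cells that bear Frizzled receptors, and beta-catenin then acts through TCF factors, which the 7TCF-eGFP reporter is built to read. Pancreatic cancer is commonly described along an axis between a classical state, with gastric and intestinal epithelial genes such as trefoil factors and mucins, and a basal-like or mesenchymal state.

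Library totals ran from 80647185 to 92937247 counts in the mScarlet-positive arm and from 82118426 to 104273669 in the mScarlet-negative arm. Levels below are CPM, counts scaled by TMM-adjusted library size. The floor for a gene at 0, set at 3 counts, was worth 0.0288 to 0.0372 CPM by unadjusted totals. Of 24467 genes in the files, 15963 passed the expression filter and were tested. A pair of GFP libraries stood apart from the rest. GFP library 1 had 41701 CPM of summed macrophage markers and 4712 CPM of erythroid markers, and GFP library 4 had 36497 CPM of acinar markers and 15644 CPM of fibroblast markers. Both lie in the mScarlet-negative arm. Epithelial keratins marked the cells of both arms. Krt19 had a mean of 11410 CPM in the mScarlet-positive arm and 8327 CPM in the mScarlet-negative arm, and Krt8 one of 9792 CPM in the mScarlet-positive arm and 8234 CPM in the mScarlet-negative arm. A pair of other epithelial markers was low in both: Epcam averaged 0.174 CPM in mScarlet-positive and 3.80 CPM in mScarlet-negative libraries, and Cldn7 averaged 0.108 CPM in mScarlet-positive and 5.98 CPM in mScarlet-negative libraries.

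Across all genes, mScarlet-positive cells had more mRNA of secreted mucosal proteins, intestinal surface enzymes and detoxifying enzymes, and less of glycolytic, mitotic, DNA replication and matrix genes. The comparison was the mScarlet term of edgeR's quasi-likelihood fit, with GFP status and library number as the other terms. A gene was called at a Benjamini-Hochberg adjusted p under 0.05, and log2 fold changes are mScarlet-positive over mScarlet-negative with their standard error (SE). Of the 15963 genes tested, 2345 were called, 14.7%. These were 1087 higher (6.81%) and 1258 lower (7.88%). The median log2 fold change over all tested genes was -0.01, and the median size among the called genes was 0.81. Large differences were mostly decreases, since of 918 called genes that differed by at least 1 on the log2 scale (5.75%), 657 were lower (4.12%) and 261 higher (1.64%). In 310 genes, 1.94% of those tested, the 8 libraries of one arm did not overlap the 8 of the other, and 303 of these were called. They were 145 higher (0.908%) and 165 lower (1.03%). Within library numbers, mScarlet can be set against DN and DP against GFP, and 884 genes (5.54%) were higher and 904 (5.66%) lower in all 8 of these matched differences. Without the library number in the model 1478 genes (9.26%) were called, 596 higher and 882 lower, and 1426 genes were called in both fits. Without the 4 libraries numbered 1 the count was 1091, 472 of them higher, and without DN library 1 alone it was 1685, 706 of them higher.

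**Figure D1:**
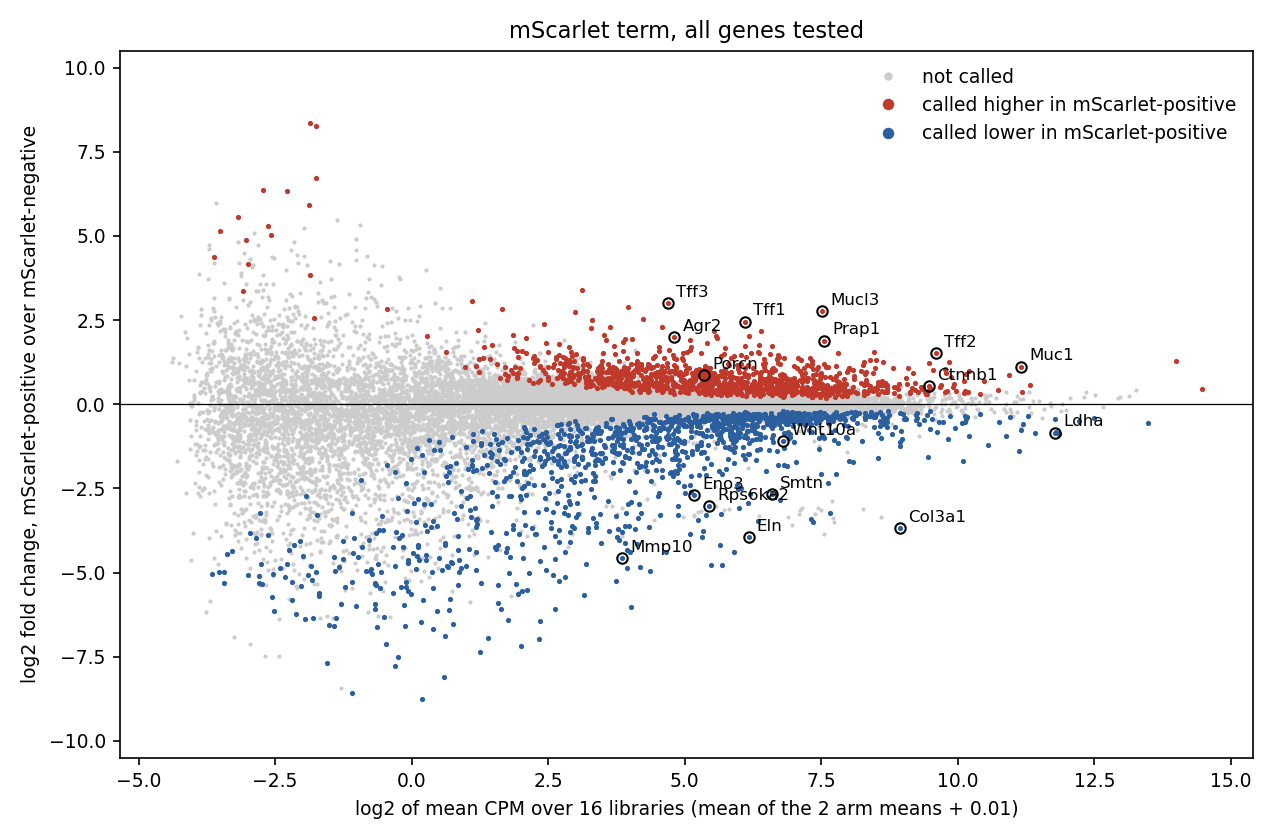
Each point is 1 of the 15963 genes tested, placed by its mean level over the 16 libraries (x axis, log2 CPM) and its log2 fold change, mScarlet-positive over mScarlet-negative (y axis). Red points are the 1087 genes called higher and blue points the 1258 called lower. More blue than red points lie far from 0, with Mmp10 at -4.57 and Tff3 at 3.00 among the labelled genes.

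Porcn, the acyltransferase of WNT secretion (chromosome X, 8193846 to 8206548, GRCm38), was higher in mScarlet-positive cells. Its level was 76.0, 64.3, 65.5 and 40.0 CPM in mScarlet libraries 1 to 4 and 51.4, 45.6, 47.9 and 33.4 CPM in DP, against 28.7, 24.2, 34.0 and 25.0 CPM in DN and 19.1, 30.8, 38.3 and 29.3 CPM in GFP. The arms overlapped only through DP library 4, which lay below DN library 3 and GFP library 3. The log2 fold change was 0.86 (SE 0.16, edgeR adjusted p = 0.00255), and Porcn was higher in 8 of 8 matched differences. Counts per gene do not separate reads of the endogenous gene from any Porcn sequence in the construct.

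Tff1, a trefoil peptide of the gastric mucosa (chromosome 17, 31161395 to 31165060), showed a larger difference. It was at 176, 64.5, 230 and 53.3 CPM in mScarlet and 120, 86.9, 162 and 42.6 CPM in DP, against 16.8, 10.7, 29.0 and 10.7 CPM in DN and 13.8, 29.6, 37.3 and 12.6 CPM in GFP. Every mScarlet-positive library lay above every mScarlet-negative one (log2 fold change 2.46, SE 0.24, edgeR adjusted p = 5.95e-05). Agr2, a disulfide isomerase of the endoplasmic reticulum that mucin secretion depends on (chromosome 12), was at 64.9, 30.6, 45.2 and 42.7 CPM in mScarlet and 69.4, 19.7, 27.7 and 58.2 CPM in DP, against 16.1, 11.4, 10.8 and 6.70 CPM in DN and 17.3, 10.0, 9.55 and 6.65 CPM in GFP. The arms did not overlap either (log2 fold change 1.99, SE 0.21, edgeR adjusted p = 9.53e-05).

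Eno3, the muscle-type enolase of glycolysis (chromosome 11, 70653125 to 70662513), went the other way. It was at 9.87, 7.95, 13.4 and 13.6 CPM in mScarlet and 5.45, 7.07, 7.19 and 9.03 CPM in DP, against 119, 74.4, 44.2 and 98.4 CPM in DN and 53.2, 47.4, 32.5 and 33.2 CPM in GFP. The lowest mScarlet-negative library held more than the highest mScarlet-positive one (log2 fold change -2.69, SE 0.21, edgeR adjusted p = 2.36e-05). Within each arm the GFP-positive gate had the lower mean, 7.18 CPM in DP and 11.2 CPM in mScarlet, and 41.6 CPM in GFP and 84.0 CPM in DN. The GFP term of the fit did not call Eno3 (log2 fold change -0.81, edgeR adjusted p = 0.0976). Eno3 overlaps Pfn1, an actin-binding gene with a log2 fold change of -0.34, and whether counting used strand is not stated in the sources.

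**Figure D2:**
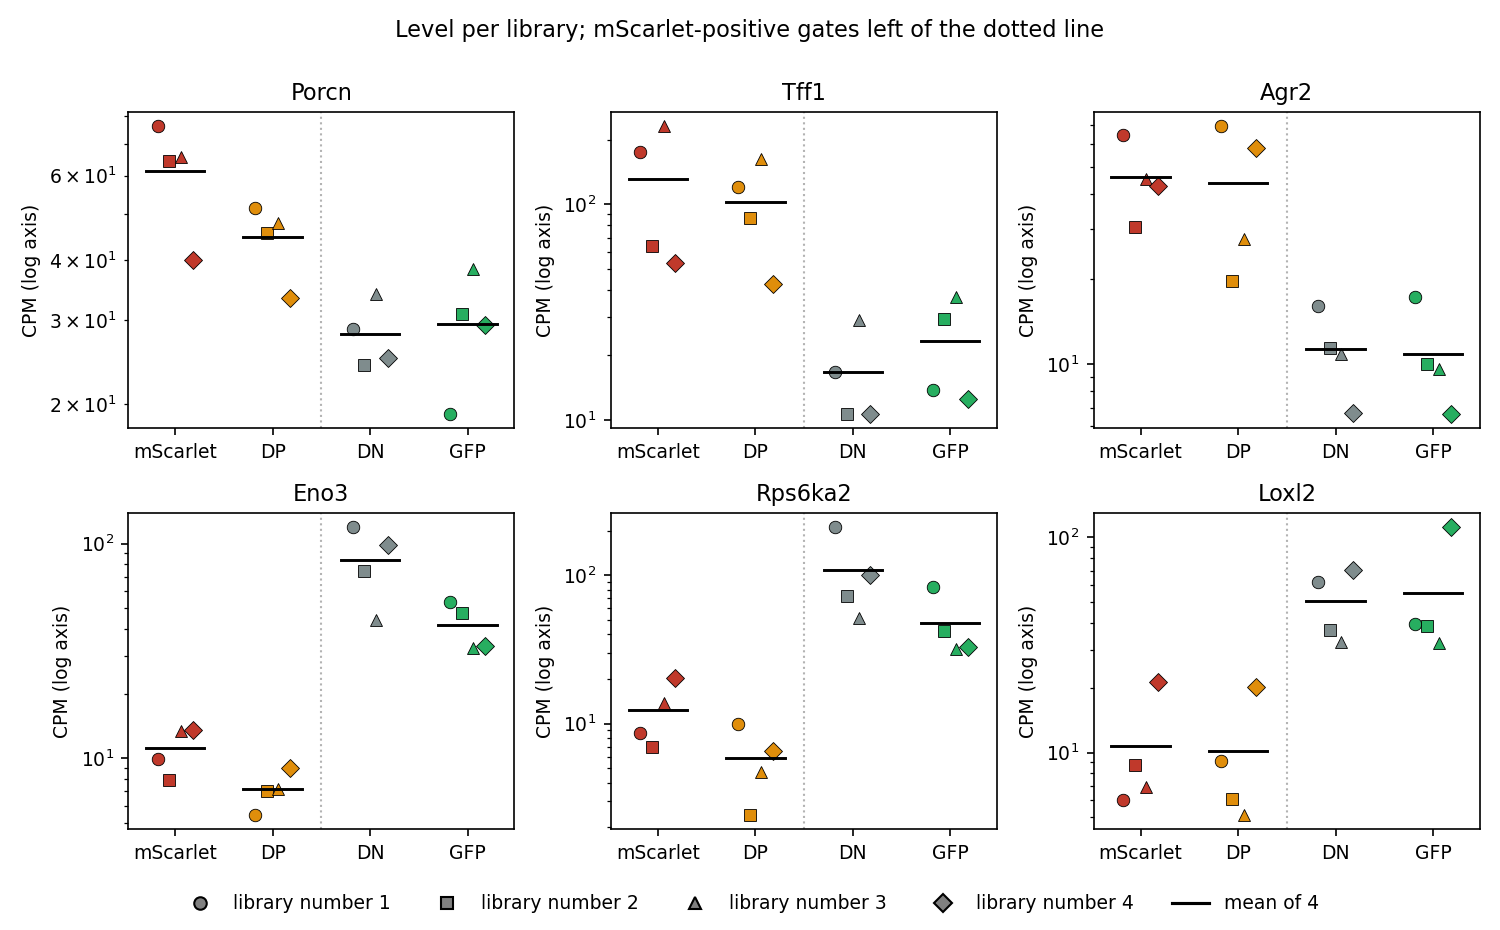
Levels of 6 genes in every library (CPM, log axes), with the mScarlet-positive gates mScarlet and DP left of the dotted line and the mScarlet-negative gates DN and GFP right of it. Symbols give the library number and bars the mean of 4. For Tff1, Agr2, Eno3, Rps6ka2 and Loxl2 the arms do not overlap, and for Porcn they overlap through DP library 4.

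Mucus and goblet cell genes were higher as a group. Of 21 tested members of this list, 14 were called higher and 0 lower, with a median log2 fold change of 1.38 against -0.01 over all genes. Goblet cells secrete mucins and the small trefoil peptides that bind to them. All 3 trefoil genes, which lie side by side on chromosome 17, were called higher. Tff2 was the most abundant, at 591, 1116 and 1953 CPM (lowest, median and highest) in mScarlet-positive and 211, 359 and 625 CPM in mScarlet-negative libraries (log2 fold change 1.53, SE 0.21). Tff3 ran from 8.43 to 95.4 CPM in mScarlet-positive and from 1.77 to 9.14 CPM in mScarlet-negative libraries, so that mScarlet library 4 alone lay within the mScarlet-negative range (3.00, SE 0.36, edgeR adjusted p = 0.00016). Muc1, a transmembrane mucin, averaged 3048 ± 709 CPM in the mScarlet-positive arm and 1524 ± 765 CPM in the mScarlet-negative arm (SD, n = 8 each), a log2 fold change of 1.12 with an edgeR adjusted p of 0.00156. Clca1, a secreted goblet cell protein, had a log2 fold change of 2.89 (SE 0.35), and Mucl3, a mucin-like gene outside the list, one of 2.77 (SE 0.36). Mucl3 differed widely among mScarlet-positive libraries, from 84.4 CPM in mScarlet library 4 to 779 CPM in mScarlet library 1. Ern2, the stress sensor of mucosal endoplasmic reticulum, was at a median of 78.0 CPM in mScarlet-positive and 17.9 CPM in mScarlet-negative libraries (1.98, SE 0.22). Of the 27 tested genes of the wider secretory pathway 4 were called higher and 0 lower, with a median of 0.06, and 2 were called without the library number in the model.

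Classical PDAC genes were also higher, with 18 of 27 tested members called higher and 0 lower (median 0.62). The list shares its trefoil genes and Agr2, Agr3, Muc1, Muc13, Krt20, Lgals4, Myo1a and Hnf4a with the mucosal lists. Ctse, the gastric aspartic protease cathepsin E, averaged 1274 CPM in mScarlet-positive and 555 CPM in mScarlet-negative libraries, without overlap (log2 fold change 1.25, edgeR adjusted p = 7e-05). Without the library number in the model 11 of the 27 were called. Of 16 basal-like genes tested, 1 was called higher and 2 lower (median -0.49). The one higher was the keratin Krt14 (0.85, SE 0.23), whose adjusted p was 0.0667 without DN library 1 and 0.0567 without DP library 4. The lower ones were the neuropilin-like receptor Dcbld2 (-1.77, SE 0.39) and the glucose transporter Slc2a1 (-0.81, SE 0.10).

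Among transcription factors of the endoderm and pancreas, 12 of 25 tested were called higher and 1 lower (median 0.57). Onecut2 (0.90, SE 0.19), Onecut3 (0.89, SE 0.16), Klf4 (0.70, SE 0.14) and Gata4 (0.62) were called, whereas Foxa2 (0.05), Gata6 (0.07) and Hnf4a (0.24) were not. Hnf4g, a nuclear receptor of the intestine, averaged 4.19 CPM in mScarlet-positive and 1.31 CPM in mScarlet-negative libraries (log2 fold change 1.77, edgeR adjusted p = 0.00892). Isx, an intestinal homeobox factor, had a larger log2 fold change, 2.83 (SE 0.82, edgeR adjusted p = 0.0338; 0.152 without the library number in the model), with 17.8 CPM in mScarlet library 1, 11.4 CPM in DP library 1 and no more than 3.12 CPM in the other 6 mScarlet-positive libraries. Its call was lost when mScarlet 1 (0.0829) or 4 (0.0535), DP 1 (0.0611), 3 (0.0656) or 4 (0.0609), DN 1 (0.067), 2 (0.0706) or 4 (0.0502) or GFP 1 (0.0571) was left out. Without the library number in the model 5 of the 25 factors were called higher and 1 lower, against 11 of the 21 mucus genes. Barx1, a stomach mesenchyme factor, was the one called lower, with 76.5 CPM in GFP library 4.

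Of 27 tested enterocyte and brush border genes, 12 were called higher and 2 lower (median 1.04). The share called lower, 7.41%, was near the 7.88% over all genes. Alpi, the intestinal alkaline phosphatase, was at 26.3, 39.3 and 51.7 CPM in mScarlet-positive and 2.82, 6.81 and 20.5 CPM in mScarlet-negative libraries, without overlap (2.30, SE 0.36, edgeR adjusted p = 0.000997). Cdhr2 (1.12) and Myo1a (1.94, SE 0.43), a cadherin and a motor of the microvilli, and the actin bundler Vil1 (1.04) were higher too. Lypd8, a surface protein that keeps bacteria off the colon epithelium, was separated between arms as well (2.18, SE 0.40). The 2 lower members were the apolipoproteins Apoa1 and Apoa4, of which Apoa1 was at a median of 1.94 CPM in mScarlet-positive and 5.62 CPM in mScarlet-negative libraries. Cdx2, the intestinal master regulator, had a log2 fold change of 0.25 and was not called. The brush border genes Sis, Slc26a3 and Slc15a1 were among those that did not pass the expression filter.

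Detoxifying and retinoid enzymes had 19 of 35 tested called higher (54.3%) and 1 lower (median 1.00). That is the largest number of increases among the 37 lists, in the list with the most tested members. The share was larger, 66.7%, in the mucus list and in the classical PDAC list. The detoxifying list shares Ces2b, Ces2c, Sult1b1 and Ugt2b34 with the enterocyte list. Carboxylesterases of the Ces2 family, which hydrolyse esters and amides in gut and liver, formed a block. The 7 neighbouring Ces2 genes on chromosome 8, from Ces2a to Ces2g between 104734003 and 104969537, were all called higher, with log2 fold changes from 1.23 (Ces2g) to 2.49 (Ces2b). Ces2g was by far the most abundant of them, at a mean of 972 CPM in mScarlet-positive and 458 CPM in mScarlet-negative libraries. Ces2d-ps among them is named as a pseudogene. Ces2h, further along at 105000830, averaged 0.392 CPM in mScarlet-positive libraries and was not called (1.60, SE 0.64, edgeR adjusted p = 0.117). The copies resemble each other, so the split of reads among them is uncertain. The same holds for the alpha-class glutathione transferases, of which all 4 named Gsta genes were called higher, 3 of them within a run of 5 neighbours on chromosome 9. Gsta4, which conjugates lipid peroxidation products, averaged 1150 CPM in mScarlet-positive and 599 CPM in mScarlet-negative libraries (1.05, SE 0.16, edgeR adjusted p = 0.000947). Gclc, which begins glutathione synthesis and lies close by on chromosome 9, had a log2 fold change of 1.11. The gene families were picked out after their values were seen. Sult1b1, a sulfotransferase, was at a median of 13.8 CPM in mScarlet-positive and 1.97 CPM in mScarlet-negative libraries (2.73, SE 0.32). Of the 35, 9 had negative log2 fold changes and 15 were not called. The 1 called lower was Aldh1a2, a retinoic acid enzyme, at a median of 0.702 CPM in mScarlet-positive and 11.0 CPM in mScarlet-negative libraries, with 167 CPM in GFP library 4.

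Among the other abundant genes that rose, Prap1, a secreted protein of gut and uterine epithelium, was at 205, 282 and 400 CPM in mScarlet-positive and 44.1, 72.3 and 125 CPM in mScarlet-negative libraries (1.89, SE 0.21). Sptssb, a subunit of the enzyme that begins sphingolipid synthesis, was separated as clearly, at 381 to 638 CPM in mScarlet-positive and 85.0 to 344 CPM in mScarlet-negative libraries (1.54, SE 0.20). Pigr, the receptor that moves antibodies across epithelia, had a log2 fold change of 1.52 (SE 0.37), called with the library number in the model (edgeR adjusted p = 0.0146) and not without it (0.16) or without the libraries numbered 1 (0.136). Epithelial adhesion genes rose in part, with 9 of 31 tested called higher and 0 lower (median 0.38; 6 without the library number in the model). E-cadherin, Cdh1, averaged 1179 ± 225 CPM in mScarlet-positive and 703 ± 248 CPM in mScarlet-negative libraries (SD, n = 8 each; 0.80, SE 0.14, edgeR adjusted p = 0.00159), and the junction protein Ocln was at 9.91 to 20.1 CPM in mScarlet-positive and 2.08 to 9.78 CPM in mScarlet-negative libraries (1.19, SE 0.23).

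**Figure D3:**
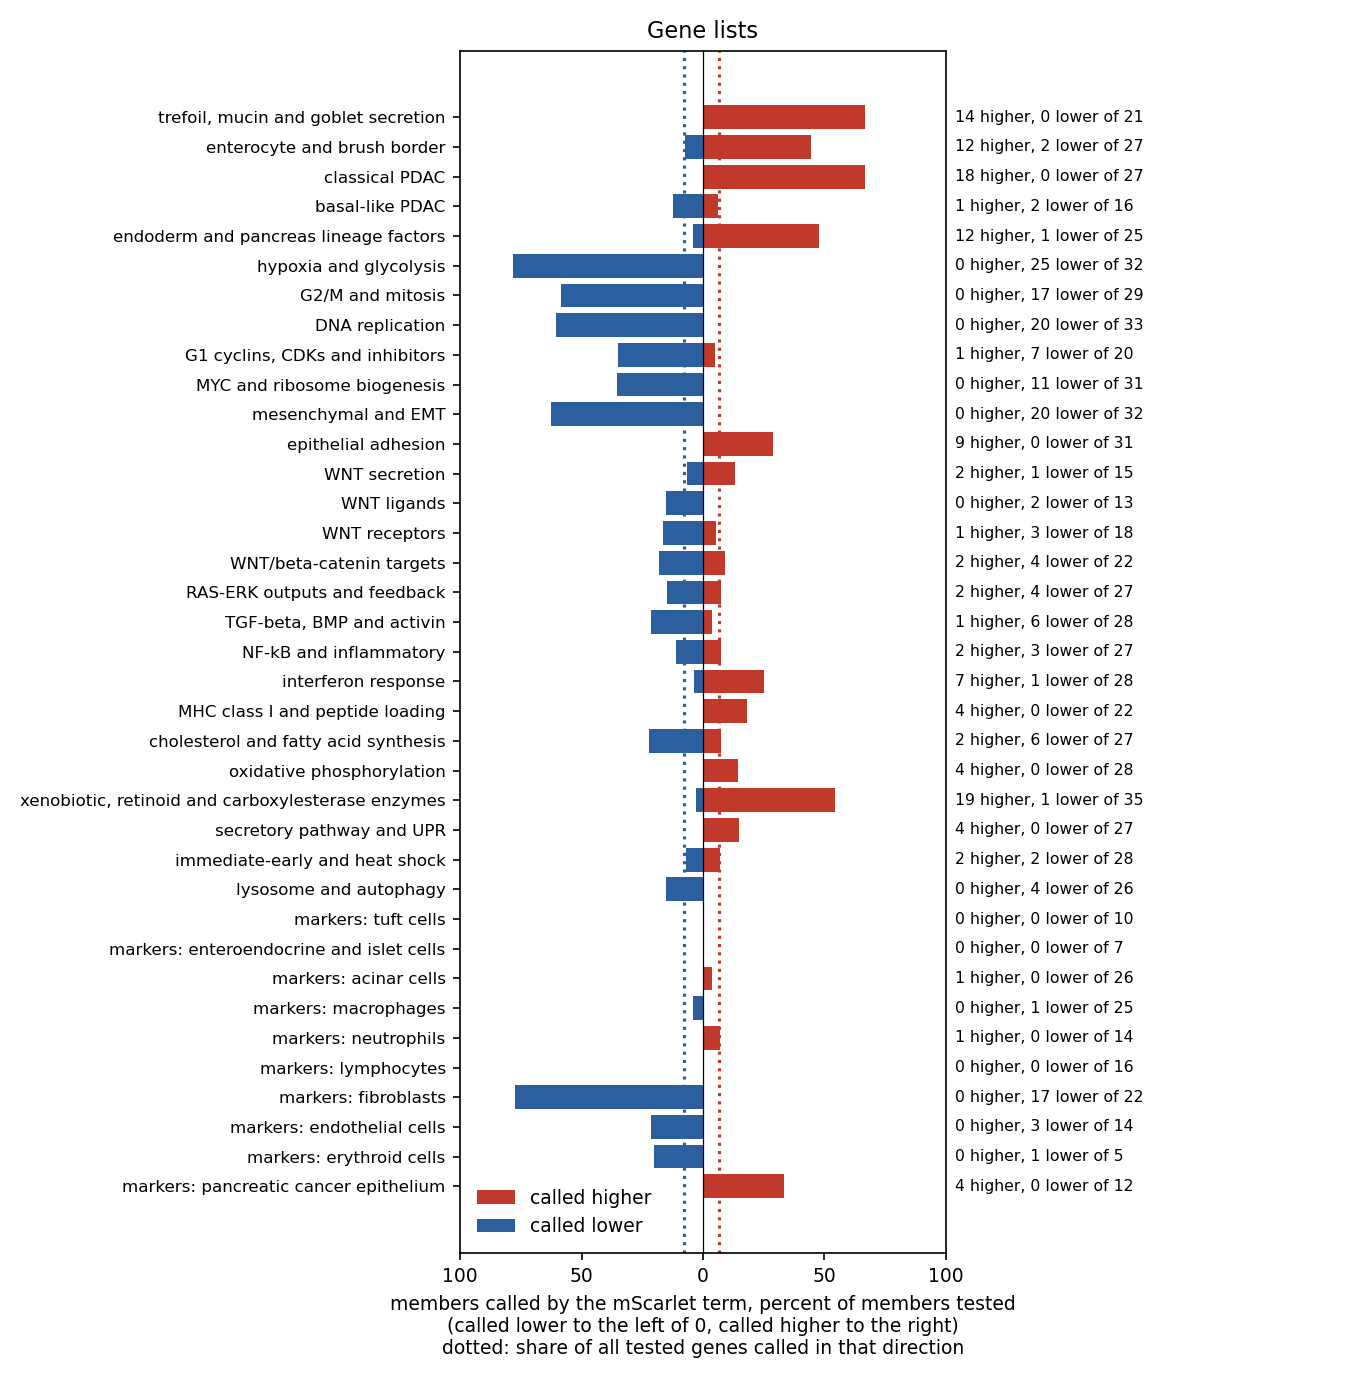
Share of the tested members of each of 37 gene lists that was called higher (red, right of 0) or lower (blue, left of 0) by the mScarlet term, in percent, with the counts at the right. Dotted lines mark the shares over all tested genes, 6.81% higher and 7.88% lower. Mucosal, classical and xenobiotic lists reach right, and hypoxia, cell cycle, mesenchymal and fibroblast lists reach left.

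Most hypoxia and glycolysis genes were lower. Of 32 tested, 25 were called lower and 0 higher (median -0.85), and 20 were called without the library number in the model. The hypoxia-inducible factors bind a short DNA core, and most glycolytic enzyme genes are among their targets. Lactate dehydrogenase Ldha, which turns pyruvate into lactate, was at 1961, 2506 and 2954 CPM in mScarlet-positive and 3650, 4142 and 6307 CPM in mScarlet-negative libraries, without overlap (-0.84, SE 0.10, edgeR adjusted p = 0.000184). Aldoa (-0.76), Gapdh (-0.84), Eno1 (-0.94) and Pgk1 (-0.99), all enzymes of the pathway, fell by like amounts. Eno1 may share reads with a near-identical copy, Eno1b, so the split between them is uncertain. The collagen prolyl hydroxylase P4ha2 fell further, to 32.4, 55.2 and 127 CPM in mScarlet-positive libraries, against 120, 186 and 280 CPM in mScarlet-negative libraries (-1.72, SE 0.15). DP library 4 alone overlapped the mScarlet-negative arm. Bnip3, a mitophagy receptor (-1.80, SE 0.27), and the oxidase Ero1a (-1.42, SE 0.23) were also lower, and both were highest among the mScarlet-positive libraries in DP library 4 and next in mScarlet library 4. The 7 members not called included Vegfa (0.13), Hk2 (0.03), Ddit4 (0.14) and Pfkfb3 (0.18), themselves hypoxia targets.

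Promoter sequence was available for 12598 of the tested genes, as the 300 bases from 250 before to 50 after the start site (RefSeq, GRCm38.p6). In all, 10 motifs were searched, and not all of them are given here. The hypoxia response core ACGTG, which also lies within the E-box CACGTG, was searched on both strands. It was present in 22 of 31 promoters of the hypoxia and glycolysis list (71.0%), against 27.2% of all. The core was in 26.6% of the promoters of genes called lower by at least 1 on the log2 scale and in 17.4% of those called higher by as much. The promoters of Ldha (chr7:46845554-46845853, plus strand) and P4ha2 (chr11:54100674-54100973, plus strand) are shown 5′ to 3′ as examples from the list, with matches to ACGTG or its reverse complement CACGT in capitals.
Ldha: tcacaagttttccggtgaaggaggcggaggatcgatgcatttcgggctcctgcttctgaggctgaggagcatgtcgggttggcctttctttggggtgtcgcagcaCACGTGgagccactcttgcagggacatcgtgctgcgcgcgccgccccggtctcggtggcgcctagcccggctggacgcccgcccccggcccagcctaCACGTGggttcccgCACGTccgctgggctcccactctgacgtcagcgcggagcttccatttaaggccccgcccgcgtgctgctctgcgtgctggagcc
P4ha2: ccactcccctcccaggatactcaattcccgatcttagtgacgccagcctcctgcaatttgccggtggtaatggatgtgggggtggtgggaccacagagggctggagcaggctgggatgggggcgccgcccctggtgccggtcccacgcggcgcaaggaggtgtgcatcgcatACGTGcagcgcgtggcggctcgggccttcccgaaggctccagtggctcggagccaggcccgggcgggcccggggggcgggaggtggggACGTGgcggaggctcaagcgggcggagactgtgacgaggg
The Ldha window held 5 matches, counting both strands where CACGTG reads the same on each, and the P4ha2 window held 2. The window of another annotated Ldha start, chr7:46846832-46847131, held 0. A match describes these letters and is not evidence of binding.

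Cell division genes were lower. Of 29 tested genes of the G2/M phase and mitosis, 17 were called lower and 0 higher, and all 29 fold changes were negative (median -1.22). Cenpa, the histone variant of centromeres, was at 16.5, 22.6 and 42.1 CPM in mScarlet-positive and 36.3, 87.5 and 132 CPM in mScarlet-negative libraries (-1.62, SE 0.22, edgeR adjusted p = 0.000363). It overlapped between the arms through the number 4 libraries of the mScarlet-positive arm and GFP library 3. The mitotic cyclin Ccnb1 (-1.71, SE 0.25), the survivin gene Birc5 (-1.66, SE 0.26) and the kinase Aurka (-1.64, SE 0.25) fell alike. The proliferation marker Mki67 was scarce, at 1.14 CPM in mScarlet-positive and 2.04 CPM in mScarlet-negative libraries, and was not called (-0.71, edgeR adjusted p = 0.55). Of 33 DNA replication genes tested, 20 were called lower and 0 higher (median -0.69). Cdc45, a part of the replicative helicase (-1.43, SE 0.23), was at 3.04 to 11.7 CPM in mScarlet-positive and 17.3 to 37.6 CPM in mScarlet-negative libraries, without overlap. Ribonucleotide reductase Rrm2 (-1.13) and Uhrf1 (-1.14), which maintains DNA methylation, were lower too, while Pcna (-0.22) and Mcm4 (-0.22) were not called.

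Promoters of the G2/M list often carry CCAAT boxes. They also often carry the cell cycle homology region, through which cells repress mitotic genes outside division. The letters TTTGAA, searched on both strands, were in 17 of 25 G2/M promoters (68.0%), against 15.4% of all, and CCAAT in 20 of 25 (80.0%), against 42.8%. TTTGAA was in 20.4% of promoters of genes called lower by at least 1 on the log2 scale. It was in 19.0% of those called higher by as much. For CCAAT these shares were 44.3% and 39.0%. Cenpa (chr5:30666636-30666935, plus strand) and Aurka (chr2:172370521-172370820, minus strand) are shown as examples, with TTTGAA and CCAAT, or its reverse complement ATTGG, in capitals.
Cenpa: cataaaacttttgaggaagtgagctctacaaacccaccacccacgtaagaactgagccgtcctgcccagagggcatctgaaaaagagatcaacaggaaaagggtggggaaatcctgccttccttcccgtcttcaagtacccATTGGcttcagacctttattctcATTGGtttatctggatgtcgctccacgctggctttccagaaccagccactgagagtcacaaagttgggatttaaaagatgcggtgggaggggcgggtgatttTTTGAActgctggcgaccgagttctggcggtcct
Aurka: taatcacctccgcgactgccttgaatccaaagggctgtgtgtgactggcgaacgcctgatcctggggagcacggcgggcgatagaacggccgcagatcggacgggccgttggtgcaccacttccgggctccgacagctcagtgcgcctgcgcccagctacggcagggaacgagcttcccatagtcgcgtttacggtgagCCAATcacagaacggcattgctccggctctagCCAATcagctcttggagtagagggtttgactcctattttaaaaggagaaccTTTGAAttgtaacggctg
Each window held 1 TTTGAA and a pair of CCAAT boxes, 3 matches in all.

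Histone genes were counted as a family, mostly replication-dependent ones, which cells transcribe during DNA synthesis. Of 61 tested, 26 were called lower and 0 higher (median -1.02). Their summed level was 546 to 830 CPM in mScarlet-positive and 752 to 1249 CPM in mScarlet-negative libraries. A large part of this sum was H1f0, which is not replication-dependent and was not called (-0.12). It averaged 281 CPM in mScarlet-positive and 305 CPM in mScarlet-negative libraries. The replication-dependent genes lie in clusters and resemble each other, so single members are uncertain. Among 15 tested tubulin genes 7 were called lower and 0 higher. The largest of these differences was that of Tubb6, at 51.0 to 135 CPM in mScarlet-positive and 162 to 630 CPM in mScarlet-negative libraries, without overlap (-2.08, SE 0.19). Of 20 G1 regulators 7 were called lower and 1, cyclin D2 (Ccnd2), higher (0.57, SE 0.15). Without DN library 1 the adjusted p of Ccnd2 was 0.0577, and without all libraries numbered 1, 2 or 3 it was 0.142, 0.0779 and 0.103. Of 31 MYC and ribosome biogenesis genes 11 were called lower and 0 higher (median -0.27), and Myc itself was at 102 CPM in mScarlet-positive and 133 CPM in mScarlet-negative libraries (-0.39, edgeR adjusted p = 0.00914). The spermidine synthase Srm did not overlap between the arms, at 49.1 to 64.2 CPM in mScarlet-positive and 67.2 to 170 CPM in mScarlet-negative libraries (-0.85, SE 0.12).

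Matrix and mesenchymal genes were lower. Of 32 tested mesenchymal genes 20 were called lower and 0 higher (median -1.62). Mmp10, a matrix protease (chromosome 9), was at 0.442, 1.38, 0.0111 and 2.22 CPM in mScarlet and 2.17, 0.789, 0.557 and 1.31 CPM in DP, against 49.0, 36.7, 9.15 and 31.4 CPM in DN and 52.0, 25.4, 4.17 and 12.6 CPM in GFP. The arms did not overlap (-4.57, SE 0.55, edgeR adjusted p = 0.000184). Fibronectin, Fn1, averaged 326 CPM in mScarlet-positive and 1082 CPM in mScarlet-negative libraries, also without overlap (-1.58, edgeR adjusted p = 0.000463). Elastin, Eln (-3.94, SE 0.70), and fibulin 1, Fbln1 (-3.28, SE 0.47), were separated too, but their highest values, 939 and 447 CPM, stood in GFP library 4. The collagens Col3a1 (-3.68, SE 0.50), Col1a2 (-3.40, SE 0.59) and Col1a1 (-3.24, SE 0.38) overlapped between arms, and Col3a1 was at 5155 CPM in GFP library 4 and at 908 CPM or less in every other library.

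Of the 5 lysyl oxidase genes, whose enzymes cross-link collagen and elastin, 4 were called lower and Loxl4 higher (0.94, SE 0.17). Loxl2 was at 5.99, 8.79, 6.94 and 21.2 CPM in mScarlet and 9.14, 6.06, 5.14 and 20.2 CPM in DP, against 62.0, 36.9, 32.6 and 70.5 CPM in DN and 39.5, 38.6, 32.3 and 111 CPM in GFP. Both mScarlet-positive gates were highest in library 4 and still below every mScarlet-negative library (-2.41, SE 0.16, edgeR adjusted p = 5.22e-06, the lowest among the 136 named genes). Loxl3 was separated as well (-2.62, SE 0.54). It lies in a run of 5 neighbours on chromosome 6 that were all called lower, Sema4f, M1ap, Dok1, Loxl3 and Htra2, and it overlaps Htra2.

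Other genes with large and separated decreases code for a kinase, an actin-binding protein, a transporter and secreted proteins. Rps6ka2, a kinase of the RSK family downstream of ERK, was at 8.59, 6.99, 13.8 and 20.2 CPM in mScarlet and 9.95, 2.43, 4.72 and 6.49 CPM in DP, against 210, 72.6, 51.5 and 99.6 CPM in DN and 82.8, 42.2, 32.0 and 32.6 CPM in GFP (-3.02, SE 0.28, edgeR adjusted p = 5.38e-05). Its relative Rps6ka1 had a log2 fold change of 0.30 and was called higher. Smtn, a smooth muscle actin-binding protein (-2.67, SE 0.22), the pyrophosphate transporter gene Ank (-2.86, SE 0.44), the secreted proteins Angptl2 (-3.03, SE 0.22) and R3hdml (-2.22, SE 0.37), and the protease Htra1 (-2.49, SE 0.23) completed the group. Angptl2 overlaps Ralgps1, which had a log2 fold change of 0.48. Angptl2 and Htra1 were highest in GFP library 4, at 136 and 342 CPM. Their other mScarlet-negative libraries held at most 56.2 and 125 CPM. Keratin 23, Krt23, averaged 27.1 CPM in mScarlet-positive and 91.8 CPM in mScarlet-negative libraries (-1.73, SE 0.25), while Krt20, a marker of differentiated gut epithelium, was at 736 CPM in mScarlet-positive and 349 CPM in mScarlet-negative libraries (1.08, SE 0.18).

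Fibroblast markers moved with these decreases. Of 22 tested, 17 were called lower and 0 higher (median -3.34), and none was at 0 throughout an arm. Their summed level was 679 to 1612 CPM in the 8 mScarlet-positive libraries and 2064 to 15644 CPM in the 8 mScarlet-negative ones, without overlap. Pdgfrb, a defining receptor of fibroblasts and pericytes, was at a median of 0.107 CPM in mScarlet-positive and 8.02 CPM in mScarlet-negative libraries (-5.07, SE 0.71). The list shares Col1a1, Col1a2, Col3a1, Acta2 and Tagln with the mesenchymal list, and in sorted bulk samples fewer cells of a type and less RNA per cell cannot be told apart. Within the mScarlet-negative arm the order differed by gene. Fibroblast sums were 2764, 2383, 2064 and 3956 CPM in DN and 2566, 4125, 2664 and 15644 CPM in GFP. Among the 12 separated decreases named by rule, Eno3, Rps6ka2, Mmp10, Smtn and R3hdml had their higher mean in DN. Angptl2, Htra1, Loxl2, Loxl3, Ank, Eln and Fbln1 had theirs in GFP. Htra1 and Loxl2 exceeded their DN means, 92.8 and 50.5 CPM, in GFP library 4 alone. Fbln1 was at 25.7, 34.9 and 17.7 CPM in GFP libraries 1 to 3, against a DN mean of 27.3 CPM. For these genes the higher GFP mean thus came from GFP library 4. With GFP libraries 1 and 4 left out, 15 of the 22 fibroblast markers and 21 of 32 mesenchymal genes were called lower. The part of fibroblast RNA in the decreases was not tested.

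**Figure D4:**
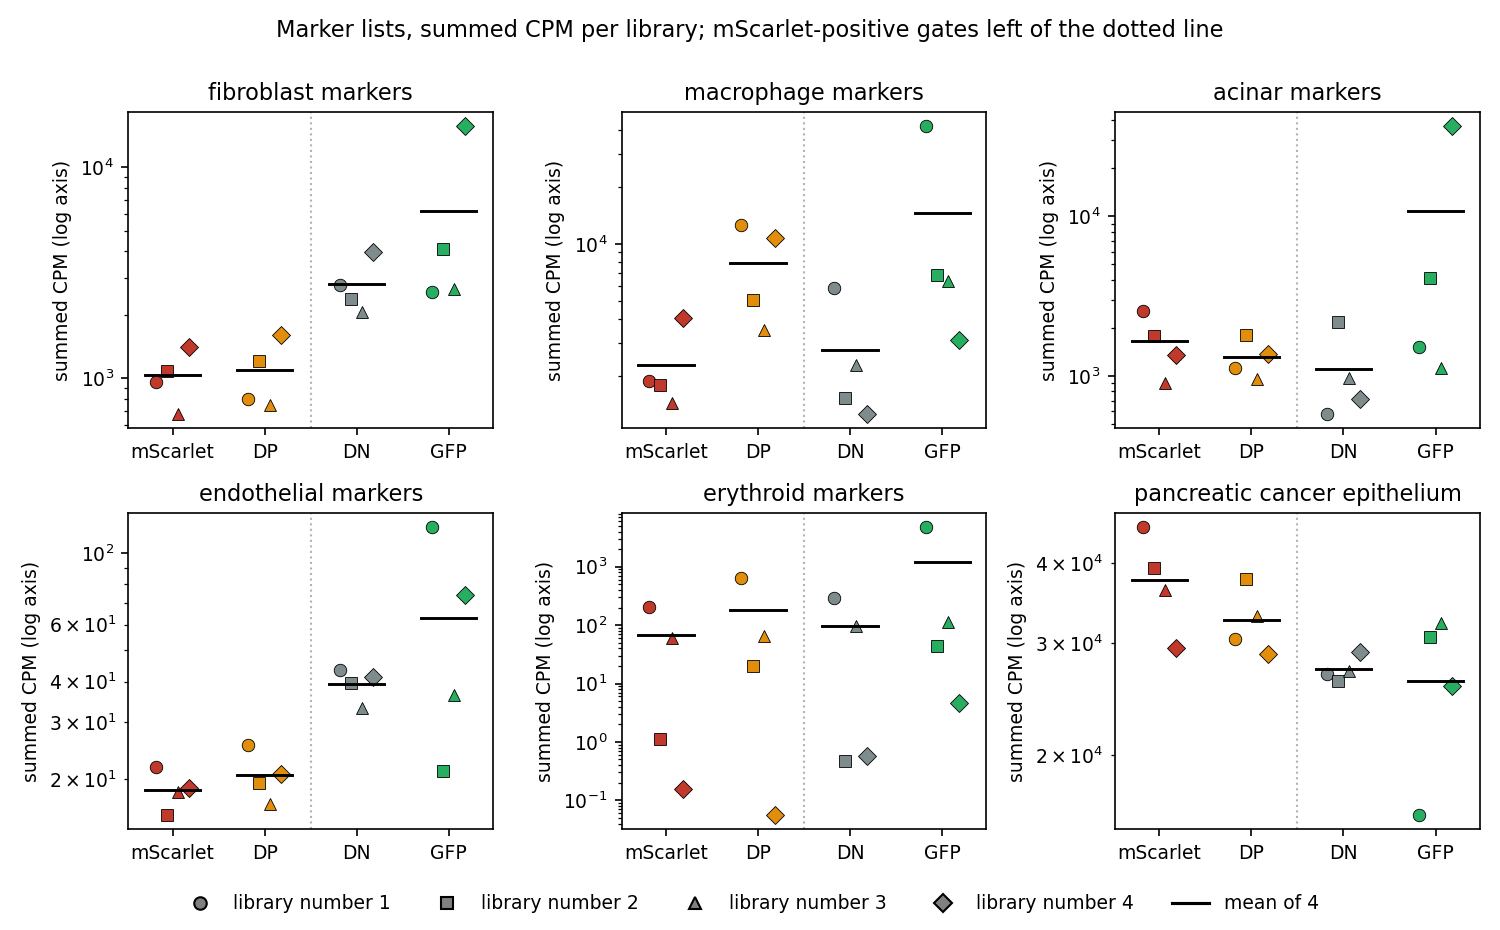
Summed CPM of 6 marker lists in every library (log axes), with mScarlet and DP left of the dotted line and DN and GFP right of it; symbols give the library number and bars the mean of 4. Fibroblast sums do not overlap between arms (679 to 1612 CPM against 2064 to 15644 CPM), whereas macrophage, acinar and erythroid sums do. GFP library 1 is highest for macrophage and erythroid markers and GFP library 4 for acinar and fibroblast markers.

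Markers of other cell types were counted in the same way. Among 25 macrophage markers 1 was called, Mrc1 (-2.29, SE 0.58), with a median of -0.38, and the sums were 1435 to 12515 CPM in mScarlet-positive and 1261 to 41701 CPM in mScarlet-negative libraries. Acinar markers had a median of -3.15, yet none was called lower. Their median was -0.46 in mScarlet over DN and -6.25 in DP over GFP. Their sums were 903 to 2534 CPM in mScarlet-positive and 578 to 36497 CPM in mScarlet-negative libraries. The 1 acinar marker called was Reg1, a secreted lectin that injured and neoplastic pancreas also makes, and it was higher (0.94, SE 0.12), at a median of 1128 CPM in mScarlet-positive and 580 CPM in mScarlet-negative libraries. Of 14 endothelial markers 3 were called lower, and of 5 erythroid markers 1. Without the library number in the model these counts were 1 and 0. The erythroid marker, Slc4a1, was also lost without any of 13 single libraries, all but DN 1, GFP 3 and GFP 4 (adjusted p of 0.0517 to 0.384). Of 14 neutrophil markers 1 was called higher, S100a9 (0.98; adjusted p = 0.485 without the library number in the model). Tuft, enteroendocrine and lymphocyte lists had 0 called of 10, 7 and 16 tested. The pancreatic cancer epithelium list had 4 of 12 called higher, with sums of 28873 to 45535 CPM in mScarlet-positive and 16129 to 32259 CPM in mScarlet-negative libraries.

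WNT genes beyond Porcn were called in both directions, with 6.81% higher and 7.88% lower over all genes for comparison. In the secretion list, which runs from Porcn through the p24 cargo proteins to the retromer, 2 of 15 tested were called higher and 1 lower. The others called were Tmed10 (0.32, SE 0.08) and Tmed9 (-0.27, SE 0.08), and neither was called without the library number in the model (adjusted p = 0.0663 and 0.0697). Tmed10 was also lost without mScarlet 3 or 4, DP 2 or 4, DN 1, or GFP 1, 2 or 3 (adjusted p of 0.05 to 0.0695), and Tmed9 without mScarlet 1, DP 1 or 3, DN 1 or 3, or GFP 1 or 3 (0.0522 to 0.0595). Wls averaged 84.6 CPM in mScarlet-positive and 78.5 CPM in mScarlet-negative libraries and was not called (0.09, edgeR adjusted p = 0.728). Of 13 WNT and R-spondin ligands tested, 2 were called lower. Wnt10a was at 93.0, 55.5, 56.4 and 86.9 CPM in mScarlet and 91.7, 44.6, 53.5 and 78.5 CPM in DP, against 248, 150, 145 and 127 CPM in DN and 214, 103, 125 and 103 CPM in GFP, and the arms did not overlap (-1.10, SE 0.12, edgeR adjusted p = 0.000108). The other, Wnt3, averaged 0.00865 CPM in mScarlet-positive libraries, under the floor, and 0.407 CPM in mScarlet-negative libraries. The most abundant ligand, Wnt7b, was at 287 CPM in mScarlet-positive and 356 CPM in mScarlet-negative libraries (-0.30, edgeR adjusted p = 0.0857), and Wnt4 at 90.0 CPM in mScarlet-positive and 65.2 CPM in mScarlet-negative libraries (0.53, edgeR adjusted p = 0.112).

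Among WNT receptors and their regulators 1 of 18 was called higher and 3 lower. R-spondin receptors went in opposite directions. Lgr6 was at 1.34, 2.70 and 11.8 CPM in mScarlet-positive and 9.78, 27.6 and 54.3 CPM in mScarlet-negative libraries (-2.95, SE 0.35, edgeR adjusted p = 0.000158). Lgr4 was at 12.7, 31.5 and 49.7 CPM in mScarlet-positive and 8.23, 15.4 and 21.5 CPM in mScarlet-negative libraries (0.99, SE 0.28, edgeR adjusted p = 0.0287). The call of Lgr4 was lost when any of 8 single libraries was left out: mScarlet 1 (adjusted p = 0.0568) or 2 (0.0527), DP 1 (0.0543), 3 (0.0528) or 4 (0.0508), DN 1 (0.0731) or 2 (0.0567), or GFP 1 (0.0695). Of 22 tested beta-catenin targets and pathway genes 2 were called higher and 4 lower (median -0.40), and 1 in each direction without the library number in the model. Beta-catenin itself, Ctnnb1, averaged 842 ± 118 CPM in mScarlet-positive and 580 ± 113 CPM in mScarlet-negative libraries (SD, n = 8 each; 0.55, SE 0.13, edgeR adjusted p = 0.0101). Tcf7l2 was the other gene called higher (0.48, SE 0.12; adjusted p = 0.11 without the library number in the model). The WNT antagonist Apcdd1 was lower, at a median of 1.62 CPM in mScarlet-positive and 6.25 CPM in mScarlet-negative libraries (-2.40, SE 0.44), and Axin2, a common readout of the pathway, averaged 0.119 CPM in mScarlet-positive and 0.264 CPM in mScarlet-negative libraries and was not called.

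Signalling, immune and metabolic lists can be read against the same shares of 6.81% and 7.88%. Of 27 RAS-ERK output genes 2 were called higher (7.41%) and 4 lower (14.8%), and 1 and 2 without the library number in the model. The ETS factor Etv4 was lower, at 16.0 to 34.9 CPM in mScarlet-positive and 31.4 to 77.2 CPM in mScarlet-negative libraries (-1.24, SE 0.17), and Phlda1 was higher (0.57, SE 0.08). Of 28 TGF-beta, BMP and activin genes 1 was called higher (3.57%) and 6 lower (21.4%), including the activin subunit Inhba (-2.71, SE 0.39). Interferon response genes had 7 of 28 called higher (25.0%) and 1 lower (median 0.33), and 1 of 28 was called higher without the library number in the model. Oas2, an antiviral sensor of double-stranded RNA, had the largest of the calls at 1.17 (SE 0.25). MHC class I and peptide loading genes had 4 of 22 called higher and 0 lower, such as the non-classical H2-T23 (0.63, SE 0.11). The calls of Tap2 and Tapbp, which load peptides, were both lost without mScarlet 1 or 4 or without DN 1 or 2 (adjusted p of 0.0501 to 0.0871). Of 27 NF-kB and inflammatory genes 2 were called higher (7.41%), among them the chemokine Ccl20 (1.02, SE 0.20), and 3 lower (11.1%), among them Il6 (-2.40, SE 0.28), whose highest levels, 31.7 and 28.5 CPM, stood in GFP libraries 1 and 4. Cholesterol and fatty acid synthesis genes had 2 of 27 called higher and 6 lower (22.2%), which were 1 and 3 without the library number in the model. Oxidative phosphorylation genes had 4 of 28 called higher and 0 lower, with log2 fold changes of 0.27 to 0.36, and 1 without the library number in the model. Of these, Ndufa1, Sdhd and Cox6c were each lost without mScarlet 3 or 4 or without DN 1, 2 or 3 (adjusted p of 0.0523 to 0.115). Immediate-early and heat shock genes had 2 of 28 called higher and 2 lower, and lysosome and autophagy genes 0 of 26 higher and 4 lower, of which 1 was called without the library number in the model.

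The mScarlet difference could be read separately in GFP-negative cells, as mScarlet over DN, and in GFP-positive cells, as DP over GFP, which share no library. In a model of the 4 gates and library number, 813 genes (5.09%) were called in mScarlet over DN, 375 higher (2.35%) and 438 lower (2.74%). In DP over GFP 791 (4.96%) were called, 321 higher (2.01%) and 470 lower (2.94%). Of these, 408 (2.56% of all tested) were called in both in the same direction, 166 higher and 242 lower, which is 50.2% of the first set and 51.6% of the second. No gene was called in opposite directions. The sign was shared by 67.8% of all tested genes. Tff1 had log2 fold changes of 2.86 in GFP-negative and 2.06 in GFP-positive cells, Agr2 of 2.01 and 1.98, and Eno3 of -2.86 and -2.53. Each was called in both by the model of the 4 gates. Porcn was called in GFP-negative cells (1.12, SE 0.20, edgeR adjusted p = 0.00951) and not in GFP-positive cells (0.59, SE 0.20, edgeR adjusted p = 0.119). The test of that difference itself gave an interaction of -0.53 (SE 0.28, edgeR unadjusted p = 0.0852). A fit of only the GFP-positive libraries called 37 genes, of which 1 was higher. At most 1 of Tff1 and Agr2 was therefore called there. Over 29 alternative settings that include this fit, Tff1 and Agr2 each kept their call in 28, and Eno3 in all 29.

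Over all genes the interaction of mScarlet with GFP called 0 genes with edgeR, with 771 at an unadjusted p under 0.05 and 0.968 as the lowest adjusted p. DESeq2 called 55 and limma voom 0. The additive GFP term called 93 genes (0.583%), 85 higher (0.532%) and 8 lower (0.0501%) in GFP-positive cells, and 0 without the library number in the model, and from 25 (without DN 2) to 210 (without GFP 4) when single libraries were left out. The counts in the separate settings moved with single libraries. The 813 became 245 without mScarlet 1, 325 without mScarlet 2, 251 without DN 1, 338 without DN 2 and 428 without DN 3. The 791 became 123 without DP 1, 427 without DP 2, 414 without DP 3, 286 without DP 4 and 397 without GFP 1. When only the 8 GFP-negative libraries were fitted, the mScarlet difference called 649 genes, and when only the 8 GFP-positive libraries were fitted it called 37, 1 higher and 36 lower.

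**Figure D5:**
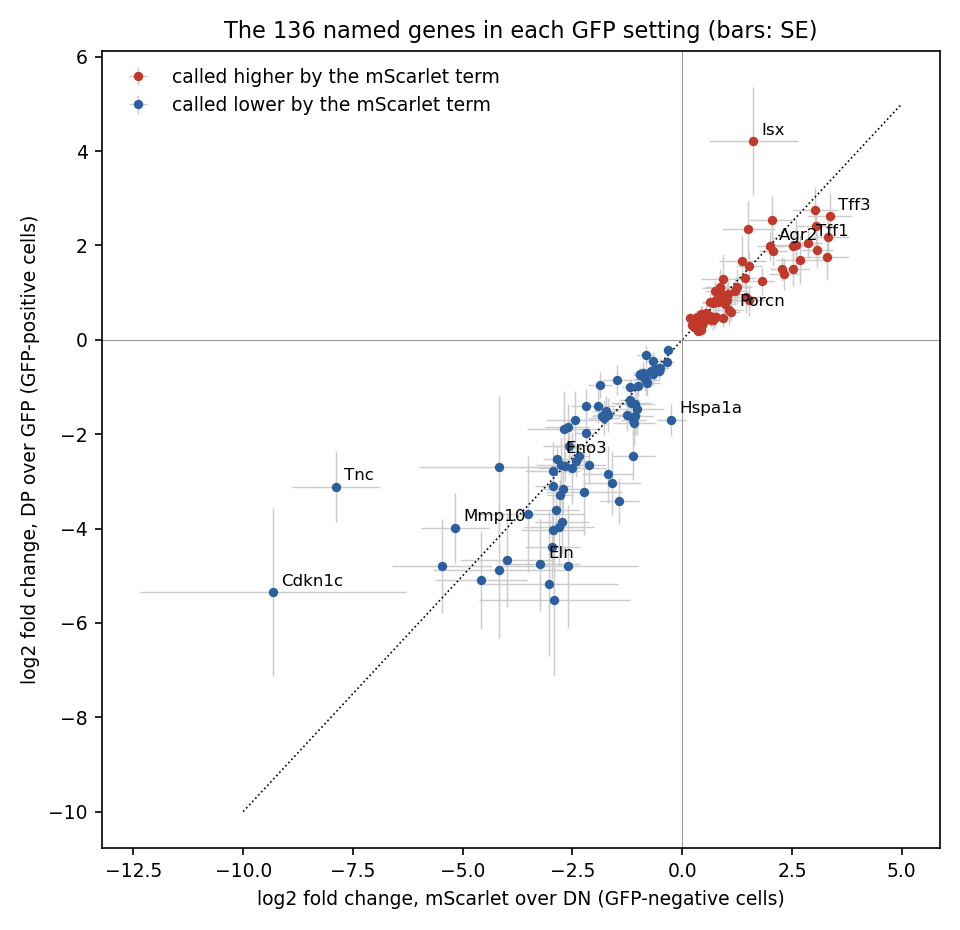
Log2 fold changes of the 136 named genes in GFP-negative cells (x axis, mScarlet over DN) and in GFP-positive cells (y axis, DP over GFP), with SE bars; red, called higher by the mScarlet term; blue, called lower. All 136 points lie in the quadrants of shared sign, and the dotted line marks equal differences. The genes were named because the mScarlet term, which pools both differences, called them, so shared sign was nearly fixed in advance. Of all 2345 genes that term called, 2344 shared the sign, against 67.8% of all tested genes.

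Along the genome the differences were spread out. Among genes at 10 CPM or more, the median log2 fold change of the 20 chromosomes ran from -0.02 to 0.10. In 180 bins of 10 Mb with at least 15 such genes, 2 had a median beyond 0.4 in size. A bin on chromosome 13 from 20000001 to 30000000, where a histone cluster lies, was at -0.46 over 26 genes. A bin on chromosome 9 from 70000001 to 80000000, which holds Gclc and the Gsta run, was at 0.43 over 33 genes.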

How the data were processed

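RNA from 16 sorted libraries was sequenced, and the values used were the raw gene counts that the authors deposited, 1 whole-number count per gene and library. The submitters' processing notes name STAR, DESeq2 1.24.0 and the builds GRCm38 and mm10, with no roles. The sources used here give neither strand use nor the annotation. Of 24467 genes, 24437 matched a symbol by gene ID in the RefSeq table, and the 30 without one held 0.723% to 1.931% of the counts.

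Libraries were grouped by title. Counts were filtered with edgeR's filterByExpr, scaled by TMM and fitted with edgeR 4.0.16 (R 4.3.3) by quasi-likelihood, with mScarlet status, GFP status and library number as additive terms and Benjamini-Hochberg adjustment over all 15963 tested genes. SEs were derived from the fold change and its F statistic. Fits without the number, with an interaction, with DESeq2 1.42.0, with limma 3.58.1 voom, with other scalings and filters, and without single libraries were alternatives. The fit was tested on simulated counts. Totals of 80647185 counts or more per library put the floor of 3 counts at 0.0372 CPM or less before TMM adjustment. Floors cover counting error only, and PCR copies carry no molecular identifiers. SEs come from the fit and also include the spread between libraries.

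The members and gene lists were chosen with earlier results of these data known. Genes named by rule were Porcn, Tff1, Agr2 and Eno3, then per direction the 12 strongest called log2 fold changes among genes averaging 10 CPM or more in their higher arm whose arms were separated (unnamed gene models skipped), the 6 strongest at 200 CPM or more, and per list up to 4 called members at 5 CPM or more. Other members, given where a list is described, were chosen after their values were seen. Promoters came from RefSeq (GRCm38.p6). Protein sequences were not used here. Some results are not reported here.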

Additional observations from a re-analysis of the deposited data

Results flagged for a closer look

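In 272 groups of 8 libraries (each of the 136 named genes in each arm, on log2(CPM + 1)), a single library stood apart from the other 7 in 13 cases, of which 12 are given here, its gap to the nearest being too large a share of the range by Dixon's 95% criterion. Chance flags about 1 in 20 groups. No explanation was weighed.

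GFP library 4 was high among mScarlet-negative libraries for Fbln1 (447 CPM), the stomach mesenchyme factor Barx1 (76.5 CPM) and the retinoic acid enzyme Aldh1a2 (167 CPM), and it also had the highest fibroblast and acinar marker sums. GFP library 1 was high for the red cell anion exchanger Slc4a1 (168 CPM), and had the highest macrophage and erythroid sums. Among mScarlet-positive libraries, DP library 1 was high for Slc4a1 (27.3 CPM) and the Golgi protein Golm1 (238 CPM), DP library 3 for Ocln (20.1 CPM), and DP library 4 for the cell cycle inhibitor Cdkn1c (1.24 CPM) and the dermal matrix gene Dpt (3.09 CPM). DP library 2 was low for Dcbld2 (0.288 CPM) and Cdc45 (3.04 CPM), and mScarlet library 2 for Loxl3 (0.129 CPM).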

How the results depend on the processing

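The mScarlet term called 2345 genes with library number as a replicate block, and 1478 (596 higher, 882 lower) with no replicate block. The block also bore on mScarlet over DN (813 with it, 159 without), DP over GFP (791 and 71) and the GFP term (93 and 0). Whether library numbers pair the samples is unsettled: deviations of same-numbered libraries correlated at 0.058 to 0.416, 20 of 24 pairs were over 0.1, and 15 of 16 libraries correlated best with their own number, a hint from the data and not the design. DESeq2 called 3614 for the mScarlet term (2137 lower), 55 for the interaction, 1847 for mScarlet over DN, 1979 for DP over GFP and 783 for the GFP term; limma voom called 1360 for DP over GFP and 462 for the GFP term. Leaving out a library or a number gave 1091 to 2566 genes for the mScarlet term (472 to 1168 higher, 619 to 1398 lower), 132 to 1140 for mScarlet over DN, 123 to 895 for DP over GFP and 8 to 210 for the GFP term. Only the GFP-negative libraries gave 649 (291 higher, 358 lower) and only the GFP-positive ones 37 (1 higher, 36 lower), each from fewer samples. A minimum log2 fold change of 1 left 918. Without GFP libraries 1 and 4, mScarlet over DN called 1396 and DP over GFP 179. Of the 136 named genes none changed sign under the alternatives run, 106 were still called without the block, 87 without number 1 and 11 in the GFP-positive libraries alone.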
